A study of Rattus norvegicus with 9 samples.

Results

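The 64 genes described here are the spliceosome and splicing factor genes of 5 symbol families, chosen by symbol alone from the 18964 genes of the deposited table. There were 11 Srsf genes, 19 Hnrnp genes, 12 Snrp genes, 9 Sf3a or Sf3b genes and 13 Prpf genes. Their messenger RNA was measured in gastric lymphatic vessels, which carry lymph out of the stomach wall, of male wild-type Sprague-Dawley rats of 180 to 220 g. All rats were fasted for 12 h. BXD rats were immersed for 4 h in water 15 cm deep at 22 °C, a stress that ulcerates the stomach, and 30 min later received Banxia Xiexin decoction, an herbal preparation, at 10 ml/kg by gavage. Model rats went through the same immersion and had a gavage without the decoction, which one label gives as saline and the protocol as distilled water. Control rats were not immersed and had distilled water. Model against control thus compares immersed with non-immersed rats, and BXD against model compares gavage with and without the decoction after immersion. Each group had 3 libraries. The labels give 6 rats per group but do not tie libraries to rats, so the p-values below measure the spread between these libraries, and whole dissected vessels were used, so fewer cells of a type and less RNA per cell cannot be told apart.

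Splicing removes introns from pre-mRNA on the spliceosome, a machine built from small nuclear ribonucleoproteins (snRNPs) named U1, U2, U4, U5 and U6. Each snRNP carries a ring of Sm proteins around its RNA (U6 has a related LSm ring) and proteins of its own, U2 also carries the SF3a and SF3b complexes that hold the branch point, and Prpf proteins help assemble and drive the machine. SR proteins, encoded by Srsf genes, bind exons and mostly favour their use, whereas hnRNP proteins coat the transcript and often repress nearby splice sites. Transcripts of many SR and hnRNP genes carry ultraconserved exons whose inclusion brings in an early stop codon, by which the proteins limit their own output.

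Totals ran from 12313813 to 13455705 estimated counts per library, and the 64 genes took between 0.931% and 1.06% of them. A total of 62 of the 64 passed the filter on low counts, among 14643 genes tested. Levels are given as CPM, that is counts scaled to the library's size and composition, unless said otherwise. A gene was called where edgeR's quasi-likelihood test gave it a Benjamini-Hochberg adjusted p under the threshold of 0.05, and fold changes are fitted log2 values. Lymphatic endothelial markers were present in every library, with a summed level of 2031 to 2788 CPM over 14 genes in BXD vessels, 1599 to 2511 CPM in model vessels and 1880 to 2013 CPM in control vessels. The 12 blood endothelial markers summed to 2248 to 3302 CPM in BXD vessels, 1769 to 2627 CPM in model vessels and 2176 to 2829 CPM in control vessels. In every library that sum was above the lymphatic endothelial one. The sums are over different genes, so they do not give the share of each endothelium. The 12 lymphocyte markers summed to 498 CPM in model replicate 3 and 135 to 239 CPM in the other libraries. Other tissue markers moved with the groups. The 13 adipocyte markers summed to 11750 to 16058 CPM in BXD vessels, 17704 to 33241 CPM in model vessels and 6086 to 7646 CPM in control vessels, and all 13 were called higher in model against control. The 12 smooth muscle markers summed to 8403 to 12245 CPM in BXD vessels, 2991 to 5141 CPM in model vessels and 6036 to 8871 CPM in control vessels, with 8 called lower in model against control. The 12 proliferation markers summed to 78.7 to 112 CPM in BXD vessels, 105 to 129 CPM in model vessels and 237 to 254 CPM in control vessels, with 11 called lower in model against control. The 12 striated muscle markers reached 8730 and 4710 CPM in BXD replicates 1 and 3, against 24.1 to 503 CPM in the other 7 libraries. The 12 nerve and glia markers summed to 419 to 781 CPM in BXD vessels, 419 to 664 CPM in model vessels and 413 to 794 CPM in control vessels, and of the 11 tested 1 was called higher and 5 lower in model against control. Among them Elavl4 was at 0 in all model libraries and in control replicate 3, and Th was at 0 in model replicates 1 and 3. The part of these cell types in the results was not tested.

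Compared per transcript length, as TPM, the members spanned a wide range of levels. Srsf5, an SR protein gene, had the highest mean over the 9 libraries, at 806, 641 and 527 TPM in BXD vessels, 549.9, 608 and 667 TPM in model vessels and 468, 563 and 501 TPM in control vessels. The next 4 by mean over the 9 libraries were hnRNP A/B genes, Hnrnpa1 with 438 TPM, Hnrnpab with 393 TPM, Hnrnpa3 with 391 TPM and Hnrnpa2b1 with 388 TPM. Proteins of this subfamily package nascent RNA, and the means of the last 3 differed by less than the spread between libraries of a group. The family medians were 177 TPM for Hnrnp, 98.5 TPM for Srsf, 76.2 TPM for Snrp, 39.0 TPM for Sf3 and 29.5 TPM for Prpf genes. At the bottom, Srsf12 had 0.440, 0.630 and 0.200 TPM in BXD vessels, 0.850, 0.400 and 0.570 TPM in model vessels and 0.670, 1.93 and 0.220 TPM in control vessels, and Snrpn, the neuron-enriched relative of Snrpb, had 0.320, 0.280 and 0.600 TPM in BXD vessels, 0.610, 0.570 and 0.450 TPM in model vessels and 1.07, 0 and 0.300 TPM in control vessels. These were the 2 genes that failed the filter. TPM values carry no adjustment for composition and are used here only to compare genes within a library.

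In model against control vessels 29 of the 62 tested members rose and 6 fell, so 56.5% were called, against 42.2% of all 14643 genes tested. Over all genes the calls were evenly divided, with 21.6% called higher and 20.6% lower. The median fold change of the members was 0.30 on the log2 scale, against -0.01 for all genes tested. The hnRNP family moved almost wholly one way, with 14 of 19 called higher and 0 lower and a median of 0.48. The SR family was split, with 3 of 10 tested members higher and 4 lower and a median of 0.07. Among Snrp genes 5 of 11 rose and 0 fell, among Sf3 genes 4 of 9 rose and 0 fell, and among Prpf genes 3 of 13 rose and 2 fell, with medians of 0.38, 0.23 and 0.04. The 3 model and 3 control values did not overlap for 38 members that were higher and 8 that were lower in model vessels, against 28.9% and 29.4% of all genes (58.3% either way). These counts depend on how the libraries are scaled: with library size alone 16 members were called higher and 13 lower, the median of all genes moved to -0.28 and that of the members to 0.03. The share of all genes called with library size alone is not given here. Counts under that scaling, here and for the lists below, are therefore not read against a background. Relative to the median of all genes the members' median was 0.31 higher under both scalings. A change of scaling shifts all genes by nearly the same amount, so this difference could hardly move and is no separate check. The Hnrnp and Snrp medians stayed above 0 with library size alone, at 0.21 and 0.11, while those of the Srsf, Sf3 and Prpf families turned to -0.20, -0.05 and -0.23. With upper quartile scaling the Srsf and Prpf medians were -0.06 and -0.09.

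**Figure D1:**
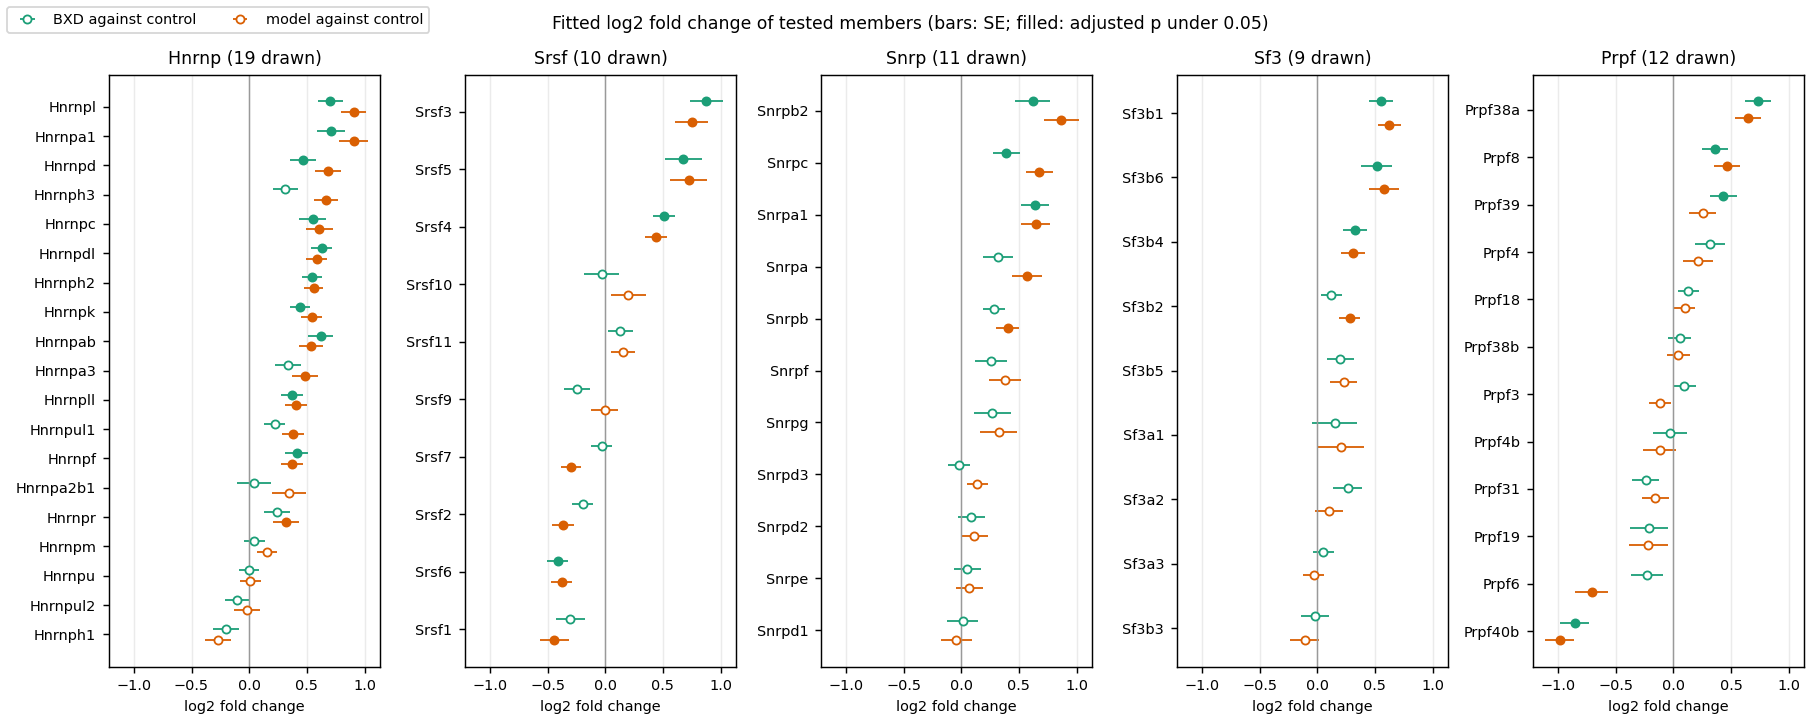
Fitted log2 fold change (horizontal axis) of 61 of the 62 tested members, one panel per family, for BXD against control (green) and model against control (orange). Points are estimates, bars are standard errors and filled points have an adjusted p under 0.05. Most Hnrnp points lie right of 0, from -0.27 for Hnrnph1 to 0.91 for Hnrnpl in model against control vessels, whereas Srsf points fall on both sides.

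Within the SR family, the classical SR proteins parted into a group that rose and a group that fell in model against control vessels. Srsf3, which encodes the smallest SR protein and also acts in mRNA export, lies on Rnor_6.0 at chromosome 20, 6288284 to 6298218, plus strand. It had 220.1, 326 and 305 CPM in BXD vessels, 272, 261 and 247 CPM in model vessels and 163, 153 and 148 CPM in control vessels. Every BXD and model value lay above every control value. The fold change for model against control was 0.75 ± 0.14 (SE, adjusted p = 0.00410). Srsf5 (SRp40; chromosome 6, 104611013 to 104640033, plus strand), had 558, 430.1 and 363 CPM in BXD vessels, 412, 499.9 and 482 CPM in model vessels and 264, 299 and 282 CPM in control vessels. Again no BXD or model library overlapped the control libraries, and BXD replicate 1 was the highest of the 9. Its fold change for model against control was 0.72 ± 0.16 (SE, adjusted p = 0.00734). Srsf4 (SRp75; chromosome 5, 150032999 to 150060769, plus strand), had 128, 133 and 126 CPM in BXD vessels, 129, 123 and 116 CPM in model vessels and 92.3, 82.0 and 97.4 CPM in control vessels, with no overlap between control and the other libraries. It rose by 0.44 ± 0.10 (SE, adjusted p = 0.00685), a call that was lost with library size alone, at 0.17, and on the FPKM scale.

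The SR genes that fell were Srsf1, Srsf2, Srsf6 and Srsf7. Srsf1, the founding SR protein (also called SF2/ASF), lies at chromosome 10, 75334200 to 75341197, plus strand. It had 168, 214 and 235 CPM in BXD vessels, 187, 184 and 188 CPM in model vessels and 263, 245 and 251 CPM in control vessels. The model libraries lay close together and below all control libraries, and BXD replicate 1 was the lowest of the 9. The fold change for model against control was -0.44 ± 0.12 (SE, adjusted p = 0.0197), and it lost its call when control replicate 1 was left out, at -0.42. Srsf2, also called SC35 and known for its place in nuclear speckles (chromosome 10, 105792779 to 105795986, minus strand), had 331, 351 and 329 CPM in BXD vessels, 318, 285 and 296 CPM in model vessels and 402, 363 and 394 CPM in control vessels. The groups formed 3 steps without overlap, model lowest and control highest, and the fold change for model against control was -0.37 ± 0.09 (SE, adjusted p = 0.0130). Srsf6 (SRp55; chromosome 3, 159305345 to 159310668, plus strand) had 221, 192 and 199.7 CPM in BXD vessels, 204, 217 and 206 CPM in model vessels and 278, 264 and 274 CPM in control vessels, so that BXD and model values overlapped and both lay below control. It fell by 0.38 ± 0.09 on the log2 scale (SE, adjusted p = 0.0103). Srsf7, the closest relative of Srsf3 (chromosome 6, 2879312 to 2886505, minus strand), had 98.4, 93.2 and 93.1 CPM in BXD vessels, 79.3, 74.6 and 82.7 CPM in model vessels and 92.4, 94.3 and 104 CPM in control vessels. Its fold change for model against control was -0.30 ± 0.09 (SE, adjusted p = 0.0258), and BXD values overlapped those of control. The fall of Srsf7 was called with the 4 scalings of the counts but lost on log2(FPKM + 1), which adjusts for transcript length, at -0.05 (adjusted p = 0.755). The implied transcript length of Srsf7, described below, was also shorter in model vessels. The other 3 tested SR genes were not called. Srsf9 (SRp30c), the least abundant of the 10, had 21.6, 24.0 and 24.3 CPM in BXD vessels, 30.3, 27.3 and 24.8 CPM in model vessels and 28.2, 28.2 and 26.4 CPM in control vessels. Srsf10, which represses splicing when it is dephosphorylated, had 159, 124 and 111 CPM in BXD vessels, 156, 161 and 146 CPM in model vessels and 156, 123 and 124 CPM in control vessels. Srsf11 had 212, 185 and 171 CPM in BXD vessels, 189, 194 and 193 CPM in model vessels and 187, 166 and 165 CPM in control vessels. For Srsf9 the BXD libraries lay below all others, for Srsf10 all 3 groups overlapped, and for Srsf11 the model libraries lay just above control while the BXD range overlapped both.

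**Figure D2:**
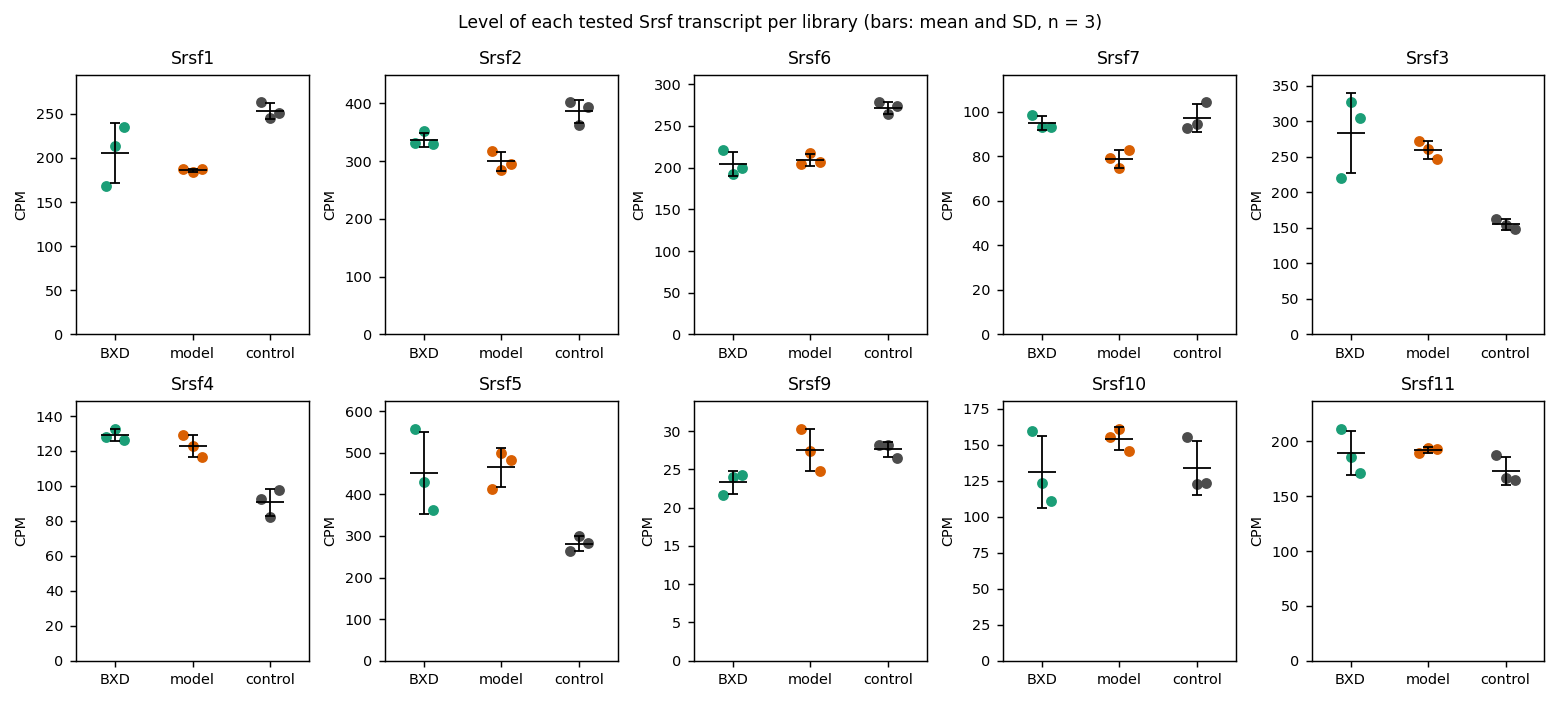
Level in CPM (vertical axis, from 0) of the 10 tested Srsf genes in each library, with BXD, model and control side by side. Points are libraries, and bars show the mean and SD of 3 libraries. Srsf3, Srsf4 and Srsf5 are higher in every BXD and model library than in any control library, and Srsf1, Srsf2 and Srsf6 are lower.

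The promoters of 5 of the SR genes that moved in opposite directions are shown: Srsf1, Srsf2 and Srsf6 fell in model against control vessels, and Srsf3 and Srsf5 rose. The windows of Srsf4, which also rose, and Srsf7, which also fell, are not printed, and their matches are given below. Each is the 250 bases before the RefSeq start of the gene on the GRCr8 build, 5′ to 3′ on the gene's strand. Capitals mark matches to GCGCNNGCGC, a palindrome that was therefore searched on both strands at once, close to the binding sequence of NRF1, a factor that binds the promoters of many housekeeping genes.
Srsf1 (chr10:73336248-73336497, plus strand): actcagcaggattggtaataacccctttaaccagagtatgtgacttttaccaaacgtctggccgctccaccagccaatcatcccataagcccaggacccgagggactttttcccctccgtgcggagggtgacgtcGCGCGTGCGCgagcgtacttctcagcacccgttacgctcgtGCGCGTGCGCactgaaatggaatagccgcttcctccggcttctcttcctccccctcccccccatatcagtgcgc
Srsf2 (chr10:102554142-102554391, minus strand): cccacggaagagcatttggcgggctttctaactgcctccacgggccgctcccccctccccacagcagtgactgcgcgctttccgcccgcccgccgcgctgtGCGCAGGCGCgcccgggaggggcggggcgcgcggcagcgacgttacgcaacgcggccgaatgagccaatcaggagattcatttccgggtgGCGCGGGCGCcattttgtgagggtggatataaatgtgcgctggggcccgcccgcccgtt
Srsf6 (chr3:172008822-172009071, plus strand): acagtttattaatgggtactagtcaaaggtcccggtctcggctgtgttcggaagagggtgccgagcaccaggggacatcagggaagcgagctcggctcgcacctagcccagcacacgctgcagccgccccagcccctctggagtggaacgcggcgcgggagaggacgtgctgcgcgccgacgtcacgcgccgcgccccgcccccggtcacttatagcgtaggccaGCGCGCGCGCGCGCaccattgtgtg
Srsf3 (chr20:7093335-7093584, plus strand): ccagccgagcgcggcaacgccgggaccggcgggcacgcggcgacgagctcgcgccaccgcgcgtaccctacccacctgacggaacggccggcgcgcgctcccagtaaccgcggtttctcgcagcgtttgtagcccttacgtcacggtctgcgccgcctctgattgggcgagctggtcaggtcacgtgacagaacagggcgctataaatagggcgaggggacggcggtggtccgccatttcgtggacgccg
Srsf5 (chr6:106336506-106336755, plus strand): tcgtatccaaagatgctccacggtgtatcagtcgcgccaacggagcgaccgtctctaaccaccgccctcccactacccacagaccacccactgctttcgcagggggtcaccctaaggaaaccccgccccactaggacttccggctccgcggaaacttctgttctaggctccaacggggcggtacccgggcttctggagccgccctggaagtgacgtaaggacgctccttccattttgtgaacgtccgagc
The Srsf1 and Srsf2 windows held 2 matches each and the Srsf6 window held 3 that overlap in a single run of alternating G and C, whereas the Srsf3 and Srsf5 windows held 0. The split did not hold beyond these 5 genes. Srsf4, which rose, had 1 match and Srsf7, which fell, had 0. Outside the Srsf genes, Hnrnpa3, Hnrnpab, Hnrnpdl, Hnrnpf and Snrpb2, all called higher, had a window with the motif, as did Prpf6, called lower. Prpf40b, which fell most, had 0 matches. Srsf9, Srsf10, Hnrnph1, Hnrnpm, Prpf3, Prpf39, Sf3a2 and Sf3b3, which were not called in that comparison, also had a window with it. Over the 61 of 64 members with a RefSeq promoter, some with more than 1 start, 18 of 65 windows held the motif (27.7%), against 4.80% of all 33469 rat promoter windows of that length. Member promoters were also richer in G and C, with a median of 58.0% and 18 CpG pairs per window, against 51.2% and 5 CpG pairs for all promoters. CCGGAAG, a core sequence of ETS factor sites, was found on either strand in 29.2% of member windows and 7.27% of all, and overlaps between the 2 motifs were not removed. Other short sequences were searched in the same way. GGGCGG was in 52.3% of member windows and 30.5% of all, CCAAT in 50.8% and 34.0%, and CACGTG in 10.8% and 5.59%. TGACGTCA was in 1.54% and 1.59%, and TATAAA in 10.8% and 12.9%. By family, the motif GCGCNNGCGC was in 6 of 12 Srsf, 6 of 21 Hnrnp, 1 of 12 Snrp, 2 of 8 Sf3 and 3 of 12 Prpf windows. A match describes these letters in these windows and nothing was measured of any factor's binding.

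The hnRNP family gave the broadest rise in model against control vessels, where 21.6% of all genes tested were called higher. Of the 6 A/B and D genes, 5 were called higher, of the 4 F/H genes 3, of the 2 L genes 2, of the 3 U genes 1 and of the other 4 (C, K, M and R) 3. Hnrnpl, which binds CA repeats and represses or activates exons near them (chromosome 1, 86994090 to 87006776, plus strand), had 489, 451 and 429 CPM in BXD vessels, 516, 557 and 501 CPM in model vessels and 254, 291 and 296 CPM in control vessels. Every BXD library was below every model library and above every control library. The fold change for model against control was 0.91 ± 0.11 (SE, adjusted p = 0.000607). Hnrnpa1, a known antagonist of Srsf1 in splice site choice (chromosome 7, 144865302 to 144871592, plus strand), had 483, 593 and 568 CPM in BXD vessels, 671, 585 and 626 CPM in model vessels and 294, 357 and 353 CPM in control vessels. All BXD and model values exceeded all control values, and the fold change for model against control was 0.90 ± 0.12 (SE, adjusted p = 0.00105). Hnrnpa1 has many processed copies in mammalian genomes, so reads may be shared with them and its level is uncertain to that extent. Hnrnph2, an X-linked gene whose product binds runs of G (chromosome X, 105417603 to 105423531, plus strand), had 132, 145 and 144 CPM in BXD vessels, 141, 144 and 141 CPM in model vessels and 96.8, 93.4 and 98.6 CPM in control vessels. All control libraries lay below all others, and it rose by 0.56 ± 0.08 (SE, adjusted p = 0.00144).

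The other hnRNP genes called higher in model vessels had fold changes between 0.32 for Hnrnpr, an axonal RNA-binding protein gene, and 0.68 for Hnrnpd (AUF1, which binds AU-rich elements). Hnrnpk, a poly(C)-binding protein gene, had 702, 724 and 666 CPM in model vessels, against 475, 484 and 480.0 CPM in control vessels, without overlap. Hnrnpc, whose product binds uridine tracts, had 143, 171 and 145 CPM in model vessels, against 104, 91.2 and 107 CPM in control vessels. Here too the groups were separate. Hnrnpab had 462, 381 and 450.5 CPM in model vessels, against 298, 292 and 303 CPM in control vessels, and Hnrnpa3 had 809, 714 and 776 CPM in model vessels, against 521, 592 and 529.9 CPM in control vessels. Both pairs of groups were apart. Hnrnpa2b1, the fifth highest member by level, had 262, 261 and 244 CPM in model vessels, against 194, 224 and 184 CPM in control vessels (fold change 0.35, adjusted p = 0.0835). It was thus not called, although all model values lay above all control values. The scaffold protein gene Hnrnpu had 539, 514 and 503 CPM in model vessels, against 509, 507 and 529.9 CPM in control vessels, with a fold change of 0.01. Hnrnph1, the close relative of Hnrnph2, had 287, 222 and 233 CPM in model vessels, against 313, 289 and 293 CPM in control vessels. Its model values lay below its control values but it was not called, with a fold change of -0.27 ± 0.11 (SE, adjusted p = 0.0812). With library size alone 8 hnRNP genes were called higher and 2, Hnrnph1 and Hnrnpu, lower. The calls of Hnrnpa3, Hnrnpab, Hnrnpf, Hnrnpll, Hnrnpr and Hnrnpul1 were lost with library size alone and on the FPKM scale, and those of Hnrnpf, Hnrnpr and Hnrnpul1 also with upper quartile scaling.

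Among snRNP proteins the particle-specific proteins and the shared Sm ring differed in their counts, beside 21.6% of all genes called higher. All 4 U1- and U2-specific proteins were called higher in model against control vessels, with a median fold change of 0.66, whereas 1 of the 7 tested Sm ring proteins was, with a median of 0.14 (-0.14 with library size alone, against 0.39 for the specific proteins). Snrpc, the U1 protein that steadies pairing with the 5′ splice site, had 45.4, 51.0 and 51.4 CPM in BXD vessels, 55.3, 70.2 and 54.8 CPM in model vessels and 37.0, 37.5 and 38.3 CPM in control vessels. All 3 groups were separate, control lowest and model highest, and the fold change for model against control was 0.68 ± 0.12 (SE, adjusted p = 0.00261). Snrpb2 (U2 B″) had 27.6, 38.6 and 38.7 CPM in BXD vessels, 35.9, 44.8 and 43.9 CPM in model vessels and 21.9, 24.0 and 22.4 CPM in control vessels, with control below all other libraries and a fold change for model against control of 0.87 ± 0.15 (SE, adjusted p = 0.00282). Its U2 partner Snrpa1 (U2 A′) had 25.3, 28.5 and 27.3 CPM in BXD vessels, 29.5, 27.4 and 24.4 CPM in model vessels and 18.7, 15.9 and 17.5 CPM in control vessels. Control was again lowest without overlap, and Snrpa1 rose by 0.64 ± 0.12 (SE, adjusted p = 0.00386) in model vessels. Snrpa, which binds U1 RNA, had 19.9, 20.3 and 23.0 CPM in model vessels, against 15.8, 13.8 and 13.0 CPM in control vessels, with a fold change of 0.57 ± 0.13 (SE, adjusted p = 0.00853). Its call was lost with library size alone, at 0.30, and on the FPKM scale, at 0.27, so 3 of the 4 specific proteins stayed called there. Of the Sm ring, Snrpb (SmB) was called higher, with 90.7, 99.0 and 82.6 CPM in model vessels, against 66.2, 66.7 and 73.1 CPM in control vessels, a call lost with library size alone, at 0.13, and on the FPKM scale, at 0.14. Snrpf had a fold change of 0.38 ± 0.14 (SE, adjusted p = 0.0504), and the other 5 ranged from -0.04 for Snrpd1 to 0.33 for Snrpg. The difference between the 2 sets of proteins was not tested, and reads of short genes with processed copies, such as Snrpe and Snrpg, may be shared.

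In the U2-bound SF3 complexes, 4 of 6 SF3b genes and 0 of 3 SF3a genes were called higher in model against control vessels. Over all genes tested 21.6% were called higher, and the difference between the complexes was not tested. Sf3b1, the scaffold that grips the branch point helix, had 700.5, 649 and 602 CPM in BXD vessels, 695, 649 and 705 CPM in model vessels and 467, 441 and 422 CPM in control vessels. Every BXD and model library was above every control library, and the fold change for model against control was 0.62 ± 0.10 (SE, adjusted p = 0.00201). Sf3b6 (p14), which contacts the branch point adenosine, had 16.9, 19.6 and 18.3 CPM in BXD vessels, 19.7, 20.1 and 17.6 CPM in model vessels and 14.4, 12.3 and 11.8 CPM in control vessels, with the same separation and a fold change of 0.58 ± 0.13 (SE, adjusted p = 0.00861) that was no longer called with library size alone, at 0.31. Sf3b2, a partner of Sf3b4, rose by 0.28 (adjusted p = 0.0330), with 194, 180.5 and 204 CPM in model vessels, against 155, 158 and 163 CPM in control vessels. That call was lost when BXD replicate 2, model replicates 1 or 3, or any control library was left out, with values of 0.24 to 0.28, and it was 0.01 with library size alone. Sf3b4 was the other gene called, with 38.9, 36.4 and 36.9 CPM in model vessels, against 31.7, 27.4 and 31.4 CPM in control vessels and a fold change of 0.31 ± 0.10 (SE, adjusted p = 0.0370). It was no longer called with upper quartile scaling, at 0.18, library size alone, at 0.04, or on the FPKM scale, at 0.05. With library size alone Sf3b1 was called higher and Sf3b3, which had a fold change of -0.11 with TMM, was called lower at -0.38. The SF3a subunits had fold changes of 0.21 for Sf3a1, 0.10 for Sf3a2 and -0.03 for Sf3a3, none called with TMM. Sf3a3 was called lower with library size alone, at -0.30, and on the FPKM scale, at -0.28.

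The Prpf genes held the steepest fall among the members described. Prpf40b, whose yeast counterpart belongs to U1 (chromosome 7, 140958952 to 140981588, plus strand), had 28.1, 24.6 and 26.9 CPM in BXD vessels, 27.8, 24.2 and 20.8 CPM in model vessels and 49.7, 44.7 and 49.6 CPM in control vessels. Every control library was above every other library, and the fold change for model against control was -0.98 ± 0.13 (SE, adjusted p = 0.000794). Prpf38a, which joins the machine just before its activation, had 49.1, 61.9 and 51.6 CPM in BXD vessels, 49.1, 55.6 and 48.6 CPM in model vessels and 33.8, 31.8 and 32.1 CPM in control vessels, with control lowest and no overlap. It rose by 0.65 ± 0.11 (SE, adjusted p = 0.00272). Prpf8, the core protein of U5 that surrounds the catalytic centre, had 292, 313 and 303 CPM in model vessels, against 232, 203 and 221 CPM in control vessels, a fold change of 0.47 ± 0.11 (SE, adjusted p = 0.0106) that was lost without control replicate 2, at 0.40, and with library size alone, at 0.20. Prpf6, which bridges U5 to U4/U6, had 57.8, 71.0 and 85.5 CPM in BXD vessels, 51.5, 50.4 and 51.8 CPM in model vessels and 85.6, 76.1 and 89.5 CPM in control vessels. The model libraries lay close together and below all others, with a fold change against control of -0.71 ± 0.14 (SE, adjusted p = 0.00468). For the 8 Prpf genes not called in this comparison, fold changes ran from -0.22 for the ubiquitin ligase gene Prpf19 to 0.25 for Prpf39. Of these, Prpf19, Prpf3 and Prpf31 were called lower with library size alone, at -0.49, -0.38 and -0.43, and also on the FPKM scale.

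Ratios of 2 members within a library do not depend on how libraries are scaled. The pairs below were chosen after the values were seen and are descriptions. The TPM ratio of Srsf3 over Srsf1 was 2.47, 2.88 and 2.45 in BXD vessels, 2.74, 2.68 and 2.48 in model vessels and 1.16, 1.17 and 1.11 in control vessels. Srsf4 over Srsf6 was 0.973, 1.16 and 1.06 in BXD vessels, 1.06, 0.950 and 0.948 in model vessels and 0.557, 0.520 and 0.598 in control vessels, and Hnrnph2 over Hnrnph1 was 0.473, 0.495 and 0.489 in BXD vessels, 0.444, 0.580 and 0.542 in model vessels and 0.271, 0.286 and 0.294 in control vessels. In all 3 pairs the BXD and model ranges lay above the control range and overlapped each other.

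**Figure D3:**
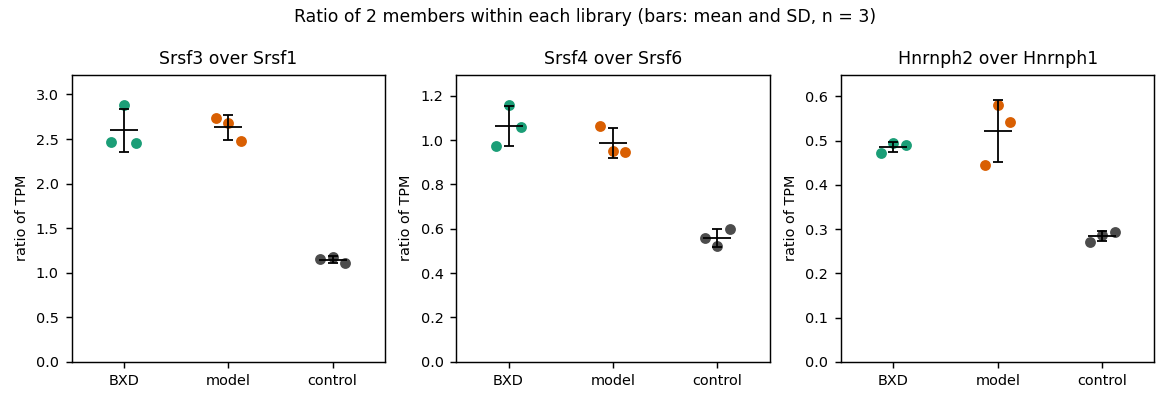
Ratio of the TPM of 2 members within each library (vertical axis, from 0) for 3 pairs, with BXD, model and control side by side. Points are libraries, and bars show the mean and SD of 3 libraries. Each pair's control libraries lie below all BXD and model libraries, for instance at 1.11 to 1.17 for Srsf3 over Srsf1.

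Between BXD and model vessels 0 of the 62 members were called by edgeR in either direction, against 0.0615% of all genes tested (0.0546% higher and 0.00683% lower). At an unadjusted p under 0.05 there were 4 members, against 20.9% of all genes. DESeq2 called 1 higher, Prpf6, and 1 lower, Hnrnph3, and limma-voom called 0. The median fold change of the members was -0.03, against -0.01 for all genes. The groups of 3 did not overlap for 4 members that were higher and 9 that were lower in BXD vessels, against 22.4% of all genes (10.5% and 11.8%). Prpf6 had the smallest p, with 57.8, 71.0 and 85.5 CPM in BXD vessels, against 51.5, 50.4 and 51.8 CPM in model vessels and a fold change of 0.48 ± 0.14 (SE, adjusted p = 0.130). Its BXD libraries lay above its model libraries and reached into the control range. Hnrnph3, a small relative of the H proteins, had 35.4, 38.4 and 39.0 CPM in BXD vessels, against 53.6, 44.1 and 46.3 CPM in model vessels, with a fold change of -0.35 ± 0.11 (SE, adjusted p = 0.135). The BXD values were all below the model values. Srsf7 had 98.4, 93.2 and 93.1 CPM in BXD vessels, against 79.3, 74.6 and 82.7 CPM in model vessels, with a fold change of 0.27 ± 0.09 (SE, adjusted p = 0.155). Snrpc had 45.4, 51.0 and 51.4 CPM in BXD vessels, against 55.3, 70.2 and 54.8 CPM in model vessels, with a fold change of -0.29 ± 0.12 (SE, adjusted p = 0.209). In both genes the groups were apart. Prpf3, a U4/U6 protein gene, had 44.6, 51.4 and 51.7 CPM in BXD vessels, against 45.1, 39.9 and 42.8 CPM in model vessels, and BXD replicate 1 fell inside the model range. Its fold change was 0.21 ± 0.10 (SE, adjusted p = 0.263). The model libraries here are those of the comparison with control, so a low or high model value enters both. A p above the threshold does not show that BXD and model vessels were alike for these genes.

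In BXD against control vessels 23 of the 62 tested members rose and 2 fell, against 16.1% of all genes called higher and 14.3% lower (30.3% either way). The control libraries are the same as in model against control, so the 2 sets of calls are not independent. The members' median fold change was 0.25, against -0.02 for all genes, and 0.03 against -0.23 with library size alone, where 13 members were called higher and 7 lower. By family, 10 of 19 Hnrnp, 3 of 10 Srsf, 3 of 11 Snrp, 3 of 9 Sf3 and 4 of 13 Prpf genes rose, and the 2 that fell were Srsf6 and Prpf40b. The values of the 3 BXD and 3 control libraries did not overlap for 32 members that were higher and 6 that were lower, against 23.8% and 24.8% of all genes (48.6% either way). Without BXD replicates 1 and 3, where striated muscle genes were high, 16 members were called higher and 2 lower, with 1 BXD library whose spread was taken from the other groups. Hnrnpdl, a relative of Hnrnpd, had 394, 416 and 402 CPM in BXD vessels, against 272, 269 and 243 CPM in control vessels, with a fold change of 0.63 ± 0.09 (SE, adjusted p = 0.00176), and Hnrnpl had a fold change of 0.70 ± 0.11 (SE, adjusted p = 0.00200). Hnrnpl thus showed the same order of groups as above, BXD between model and control. Srsf3 rose by 0.88 (adjusted p = 0.00295) and Srsf4 by 0.51 (adjusted p = 0.00503), and Srsf6 had a fold change of -0.41 ± 0.09 (SE, adjusted p = 0.0101). Prpf38a had a fold change of 0.74 ± 0.11 (SE, adjusted p = 0.00225), and Prpf40b of -0.85 ± 0.12 (SE, adjusted p = 0.00186). Snrpa1 and Sf3b1 rose by 0.64 and 0.55 (adjusted p = 0.00541 and 0.00454). Snrpb2 rose by 0.62 (adjusted p = 0.0154) and Sf3b6 by 0.51 (adjusted p = 0.0184). The call of Snrpb2 was lost without BXD replicate 2 or control replicates 1 or 3, at 0.54 to 0.60, and that of Sf3b6 without BXD replicate 2 or control replicates 2 or 3, at 0.45 to 0.48. Both were lost with library size alone.

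**Figure D4:**
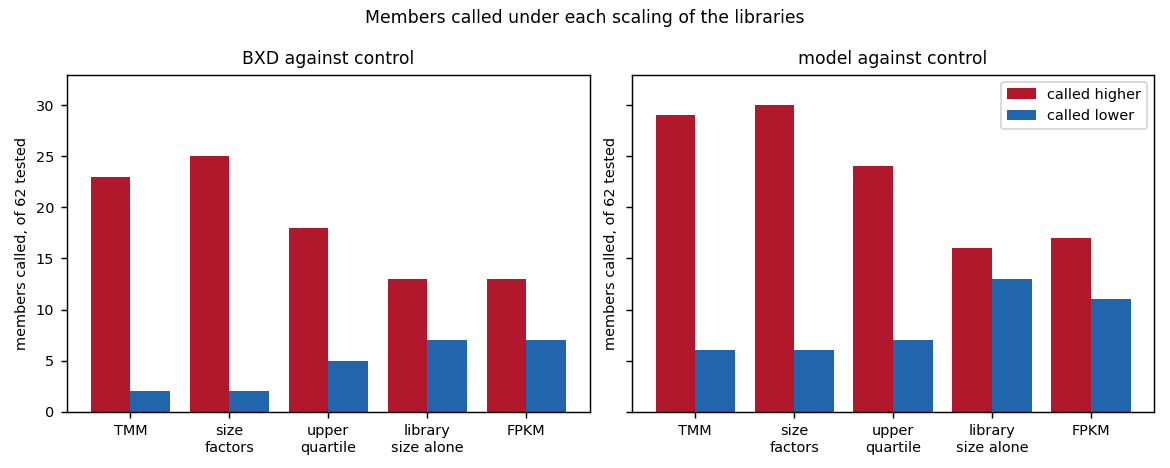
Number of the 62 tested members (vertical axis) called higher (red) and lower (blue) under 5 ways of scaling the libraries, for BXD against control (left) and model against control (right). With composition-based scaling (TMM) 29 members were called higher and 6 lower in model against control vessels, and with library size alone 16 and 13.

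A set of calls was common to TMM, size factors, upper quartile scaling, library size alone and FPKM. For model against control vessels 16 members were called higher under all 5 (among them Hnrnpa1, Hnrnpc, Hnrnpd, Hnrnpdl, Hnrnph2, Hnrnph3, Hnrnpk, Hnrnpl, Prpf38a, Sf3b1, Snrpa1, Snrpb2, Snrpc, Srsf3 and Srsf5) and 5 lower (Prpf40b, Prpf6, Srsf1, Srsf2 and Srsf6). For BXD against control vessels 12 were called higher under all 5 and 2, Prpf40b and Srsf6, lower. Of the members called with TMM, 0 changed sign under another of these scalings. In the authors' deposited table, made with DESeq2, 31 members were higher and 6 lower at a q-value under 0.05 for model against control, of which 35 were among the calls made here, each in the same direction. For BXD against control the authors' deposited table gave 25 higher and 2 lower, with 24 shared, and for BXD against model 0.

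The files also hold a trace of which transcripts of a gene were used. An estimated count divided by its TPM gives, up to a constant of the library, a mean effective length, here called the implied length. Effective length is the part of a transcript where reads can start, averaged over the transcripts to which the authors' software assigned the reads. The implied length rests on the assumption that this software, which is not named, used an effective length per gene. It was compared by limma on the log2 scale for 3967 genes with more than 1 annotated transcript and an implied length that moved, and 23 of the 64 members were among them. In model against control vessels 4 members had a shorter implied length and 0 a longer one, 17.4% of the 23 against 6.81% of the 3967 genes (2.39% longer and 4.41% shorter). Srsf7 moved most of the 4. Its implied length was 70.8, 79.5 and 83.4% of the control mean in BXD vessels, 68.8, 71.5 and 69.8% in model vessels and 99.6, 99.4 and 101% in control vessels. The model libraries lay close together, BXD libraries lay between them and control except that replicate 1 fell into the model range, and the log2 ratio for model against control was -0.51 ± 0.05 (SE, adjusted p = 0.00266). Srsf2 had an implied length of 87.0, 88.9 and 90.3% of the control mean in BXD vessels, 90.1, 88.2 and 91.0% in model vessels and 98.9, 102 and 99.1% in control vessels, with a log2 ratio for model against control of -0.16 ± 0.02 (SE, adjusted p = 0.00550). For Hnrnpdl it was 90.1, 86.9 and 86.6% of the control mean in BXD vessels, 89.8, 87.2 and 86.6% in model vessels and 102, 99.0 and 98.7% in control vessels, with a log2 ratio of -0.19 ± 0.02 (SE, adjusted p = 0.00514). In both genes BXD and model values overlapped and all were below control.

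Hnrnpab was the last of the 4, with a log2 ratio of -0.06 ± 0.01 (SE, adjusted p = 0.0412) and a mean implied length of 96.2% of control in model vessels. It lost its call when any single library was left out. Hnrnph3 was not called (adjusted p = 0.115 for model against control), and its implied length was 101, 57.2 and 60.6% of the control mean in BXD vessels, 67.0, 59.0 and 63.1% in model vessels and 119, 89.6 and 93.5% in control vessels. BXD replicate 1 stood apart from BXD replicates 2 and 3, inside the control range, and without it Hnrnph3 was called shorter in model against control vessels. In BXD against model vessels 0 members were called either way, as were 0 of the 3967 genes. Without BXD replicate 1 Srsf7 was called longer in BXD than in model vessels. In BXD against control vessels Srsf7, Srsf2 and Hnrnpdl were called shorter, 3 of 23 members against 2.34% of all genes (0.781% longer and 1.56% shorter), and Srsf7 lost that call without BXD replicate 2, with any single control library left out, and when all genes with several transcripts were fitted. The implied length depends on the authors' assignment of reads to transcripts, and the sequence of no transcript was read from it. It also moved in members with 1 annotated transcript, so it holds more than the choice of transcript. Snrpd2 spanned 96.3 to 103% of its control mean and Sf3b6 98.0 to 101%, and the shift of Hnrnpab lies within the span of Snrpd2. Over the 1892 genes with 1 annotated transcript the median SD was 0.0022 on the log2 scale and the 95th percentile 0.0189.

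**Figure D5:**
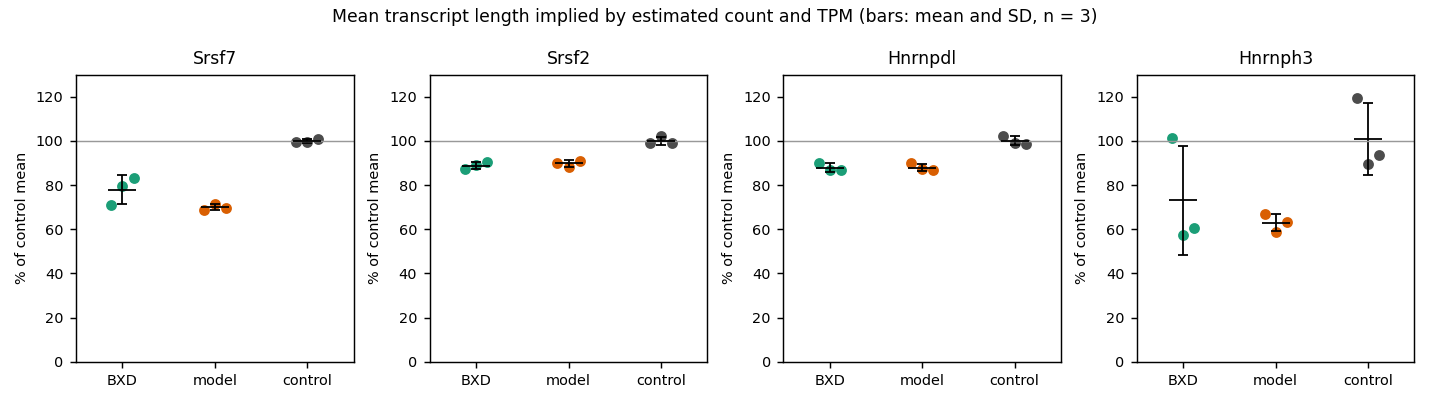
Implied mean transcript length as a percentage of the control mean (vertical axis, from 0) for 4 members in each library, with BXD, model and control side by side. Points are libraries, and bars show the mean and SD of 3 libraries. Srsf7 lies at 68.8% to 71.5% in model libraries and 99.4% to 101% in control libraries, and Hnrnph3 varies between libraries of a group.

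Other genes of the pathway were followed in 13 lists, chosen by function and holding 235 tested genes outside the 5 families. In model against control vessels 72 of these rose and 38 fell, 46.8% against 42.2% of all genes, with a median fold change of 0.09. Without model replicate 3, control replicate 2 or control replicate 3 the number lower was 24. With library size alone 34 were called higher and 69 lower. Among kinases and import receptors of SR proteins 1 of 12 rose and 7 fell (66.7% called), and the counts were 1 and 7 with library size alone. Clk3, a nuclear kinase that phosphorylates SR proteins, had 49.6, 41.8 and 40.3 CPM in model vessels, against 66.4, 75.3 and 77.1 CPM in control vessels. Its relative Clk1 had 122, 118 and 123 CPM in model vessels, against 167, 206 and 212 CPM in control vessels. Neither pair of groups overlapped, with fold changes of -0.73 ± 0.12 (SE, adjusted p = 0.00232) for Clk3 and -0.68 ± 0.13 (SE, adjusted p = 0.00388) for Clk1. Dyrk1a, a related kinase gene, was the one that rose, with 111, 118 and 115 CPM in model vessels, against 75.5, 72.1 and 73.0 CPM in control vessels and a fold change of 0.64 ± 0.09 (SE, adjusted p = 0.000972). The other 5 that fell were Clk2, Srpk1, Srpk2, Dyrk1b and Tnpo2, named after their values were seen. Among other SR-related proteins 9 of 22 rose and 7 fell (72.7% called), or 3 and 8 with library size alone. Scaf8 and Scaf11 rose, by 0.93 and 0.51 (adjusted p = 0.000358 and 0.00347), the call of Scaf11 being lost with library size alone, at 0.24, and Rsrp1 and Acin1 had fold changes of -0.95 and -0.55 (adjusted p = 0.000496 and 0.00284). Of hnRNP proteins under other symbols 8 of 17 rose and 1 fell (52.9% called), but 0 rose and 3 fell with library size alone. Matr3, a nuclear matrix protein gene, had 285, 307 and 297 CPM in model vessels, against 215, 223 and 217 CPM in control vessels. Every model value lay above every control value with the composition-scaled counts, and its call was lost with library size alone and on the FPKM scale, at 0.17 in each. Elavl1 (HuR), which stabilises AU-rich transcripts, had a fold change of -0.47 ± 0.10 (SE, adjusted p = 0.00510).

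Among tissue-regulated splicing factors 8 of 27 rose and 5 fell, or 7 and 9 with library size alone. With TMM 48.1% were called, near the 42.2% of all genes. Mbnl1, which drives adult splicing patterns in muscle and other tissues, had 35.6, 37.2 and 38.6 CPM in BXD vessels, 44.4, 45.7 and 49.4 CPM in model vessels and 23.1, 22.5 and 23.5 CPM in control vessels. The 3 groups did not overlap, with BXD in the middle, and the fold change for model against control was 1.01 ± 0.09 (SE, adjusted p = 0.000248). Qk, a regulator of splicing in glia and vascular smooth muscle, had 19.0, 25.2 and 18.7 CPM in BXD vessels, 31.2, 27.4 and 23.0 CPM in model vessels and 10.1, 7.73 and 7.08 CPM in control vessels, with control below all others and a fold change of 1.71 ± 0.20 (SE, adjusted p = 0.000552). Tia1, which promotes weak 5′ splice sites by recruiting U1, had 19.3, 28.2 and 21.7 CPM in BXD vessels, 23.1, 23.1 and 26.6 CPM in model vessels and 55.2, 55.6 and 52.5 CPM in control vessels. Its control libraries lay above all others, with a fold change of -1.16 ± 0.14 (SE, adjusted p = 0.000740). Celf4, a mostly neuronal factor, was close to the floor of 3 counts (0.195 to 0.269 CPM), at 0.350, 0.448 and 0.228 CPM in model vessels, against 1.77, 2.99 and 0.841 CPM in control vessels (adjusted p = 0.0189). Its call was lost without model replicate 1, model replicate 3 or control replicate 2, still in the same direction, and 5 of the 11 nerve and glia markers tested were also called lower, their part in its fall not being tested. Of branch point and U2-associated factors 7 of 20 rose and 4 fell (55.0% called), or 4 and 8 with library size alone. U2af1, which reads the AG at the 3′ splice site, had 104, 113 and 107 CPM in BXD vessels, 99.8, 109 and 95.9 CPM in model vessels and 48.3, 46.4 and 51.2 CPM in control vessels, all BXD and model values above all control values, with a fold change for model against control of 1.06 ± 0.09 (SE, adjusted p = 0.000230). Rbm17 rose by 0.70, and Sugp2 and Ddx39b (UAP56) had fold changes of -0.61 and -0.45 (adjusted p = 0.000844, 0.00653 and 0.0178). Ddx39b was not called without model replicates 2 or 3 or control replicate 3, at -0.43 to -0.42.

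In the list of Prp19 complex, catalytic and helicase factors 14 of 33 rose and 6 fell, but 5 rose and 8 fell with library size alone. With TMM 60.6% were called, against 42.2% of all genes. Ik (RED), a factor of the pre-catalytic spliceosome, had 177, 174 and 188 CPM in model vessels, against 102, 105 and 104 CPM in control vessels. The groups were apart, with a fold change of 0.79 ± 0.08 (SE, adjusted p = 0.000402). Cwc25, a factor of the first catalytic step, had 71.8, 61.8 and 47.9 CPM in BXD vessels, 157, 383 and 112 CPM in model vessels and 22.4, 19.1 and 17.0 CPM in control vessels. Wbp11, another spliceosome component gene, had 86.6, 72.5 and 74.7 CPM in BXD vessels, 0, 0.0896 and 5.92 CPM in model vessels and 46.1, 42.1 and 47.0 CPM in control vessels. In model replicates 1 and 2 it stayed under the floor of 3 counts, and every BXD library was above every control library (adjusted p = 0.00472 for model against control). For Cwc25 the groups were also separate, with model highest. The cause of these wide swings was not tested. Cwc27, a cyclophilin-type component gene, had a fold change of -0.67 ± 0.14 (SE, adjusted p = 0.00636). Of snRNP assembly and import factors 4 of 23 rose and 2 fell, or 2 and 4 with library size alone. The 26.1% called with TMM lay below the share of all genes. Ddx20 (Gemin3) and Strap (Unrip), of the SMN complex, rose by 0.83 and 1.01 (adjusted p = 0.000753 and 0.000890), whereas Snupn, the import adaptor snurportin, and Gemin2 had fold changes of -0.90 and -0.50 (adjusted p = 0.00813 and 0.0239). Gemin2 lost its call with any single model library left out and without control replicates 2 or 3, at -0.53 to -0.44.

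Of snRNP proteins under Snrnp symbols 3 of 17 rose and 2 fell (1 and 4 with library size alone). That was 29.4% called with TMM, below the 42.2% of all genes. Nhp2l1 (SNU13) led the rises, with 38.4, 48.1 and 36.3 CPM in model vessels, against 25.9, 21.2 and 25.2 CPM in control vessels. Snrnp200, the helicase that unwinds U4 from U6, rose by 0.40 ± 0.13 (SE, adjusted p = 0.0305). Snrnp200 lost its call with upper quartile scaling, at 0.27, with library size alone and on the FPKM scale, at 0.13 in each, and with any single model or control library left out, at 0.36 to 0.43. Snrnp48 and Snrnp35, proteins of the minor spliceosome, had fold changes of -0.49 and -0.55 (adjusted p = 0.0367 and 0.0440). The call of Snrnp48 was lost without model replicates 1 or 2 or control replicates 1 or 3, at -0.55 to -0.36, and that of Snrnp35 with size factors, at -0.53, and without BXD replicate 2, model replicates 1 or 3 or any control library, at -0.63 to -0.43. Of the 12 minor spliceosome genes 2 rose, Rbm48 by 0.95 and Zcrb1 by 0.57, and 3 fell, Armc7 with a fold change of -1.05 beside Snrnp48 and Snrnp35, or 2 and 5 with library size alone. With TMM 41.7% of them were called, near the share of all genes. Of 14 LSm proteins 2 rose, Lsm3 and Lsm14a, and 1 fell, Lsm10 (21.4% called, below the share of all genes). Lsm10 is a member of the ring of U7, which processes histone mRNA. The fold changes were 0.65 ± 0.13 (SE, adjusted p = 0.00441) for Lsm3 and -1.01 ± 0.18 (SE, adjusted p = 0.00341) for Lsm10. With library size alone 0 LSm genes rose and 3 fell, Lsm3 losing its call at 0.38. Lsm14a had a fold change of 0.26, which turned to -0.01 with library size alone, and its call was also lost with upper quartile scaling, on the FPKM scale and without BXD replicate 2, model replicates 1 or 3 or any control library, at 0.23 to 0.27. Of exon junction and nonsense-mediated decay factors 5 of 19 rose and 1 fell (31.6% called), but 3 rose and 7 fell with library size alone. Etf1, the release factor that reads stop codons, had 253, 269.9 and 276 CPM in BXD vessels, 257, 317 and 228 CPM in model vessels and 101, 99.1 and 93.1 CPM in control vessels, with BXD and model far above control and a fold change for model against control of 1.45 ± 0.13 (SE, adjusted p = 0.000231). Rbm8a (Y14) rose by 0.67 (adjusted p = 0.00152) and Dhx34 had a fold change of -0.90 (adjusted p = 0.00381). Of 20 genes for 3′ end processing 8 rose and 1 fell (45.0% called), or 5 and 4 with library size alone. Rbbp6 and Cstf2t rose by 0.97 and 0.99, and the poly(A) polymerase gene Papola had a fold change of -0.34 (adjusted p = 0.000854, 0.000887 and 0.0311). Papola was not called without model replicate 3 or control replicates 1 or 2, at -0.36 to -0.25.

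The 2 cold-inducible RNA-binding proteins differed. Rbm3, which is induced by mild cooling, had 302, 359 and 333 CPM in BXD vessels, 309, 305 and 347 CPM in model vessels and 126, 169 and 167 CPM in control vessels. All BXD and model libraries lay above all control libraries, with fold changes against control of 1.10 ± 0.14 (SE, adjusted p = 0.00109) in BXD and 1.06 ± 0.14 (SE, adjusted p = 0.000817) in model vessels. Cirbp, the second gene of this kind, had 87.1, 76.2 and 66.4 CPM in BXD vessels, 88.2, 75.6 and 92.5 CPM in model vessels and 87.1, 122 and 108 CPM in control vessels. Model and control libraries overlapped, with a fold change of -0.30 ± 0.15 (SE, adjusted p = 0.134), and BXD against control gave -0.46 ± 0.15 (SE, adjusted p = 0.0456) with the nearest BXD and control values equal as rounded, at 87.1 CPM. Over the 235 genes of the 13 lists, BXD against model gave 0 calls in either direction with edgeR, 2 higher and 4 lower with DESeq2. BXD against control gave 65 higher and 23 lower, 37.4% against 30.3% of all genes, and without control replicate 3 the number lower was 8, without BXD replicate 2 it was 11, and without control replicates 1 or 2 it was 10 each. The number higher was 42 without control replicate 1 and 43 without control replicate 2.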

How the data were processed

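RNA-seq libraries of polyadenylated RNA, 3 per group and 9 in all, were made from gastric lymphatic vessels and read by Illumina sequencing, per the labels, with Rnor_6.0 as the genome. The submitters' processing notes name Bowtie2 2.2.5, Bowtie and HISAT2 2.2.4 without roles. The tool that estimated the values and whether strand was used are not given in the sources used here, so reads of overlapping or near-identical genes cannot be told apart. The authors deposited estimated counts per gene, not scaled for depth, and 88.8% of them were whole numbers within 1e-09. The authors also deposited FPKM and TPM per library. Per the file headers, the deposited table further holds log2 fold changes of group pairs and DESeq2 p-values with q-values. A further 45 columns of per-sample values were not used, and an omeprazole group named in the labels was not analysed here.

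Counts were rounded and fitted over all 9 libraries by group with edgeR 4.0.16 in R 4.3.3 (TMM scaling, filterByExpr, robust quasi-likelihood test), and p-values were adjusted by Benjamini-Hochberg over 14643 genes with a threshold of 0.05. TMM factors ran from 0.873 to 0.985 in BXD and model libraries and from 1.09 to 1.15 in control libraries. The scaling thus differed between immersed and control libraries without overlap. The common biological coefficient of variation was 23.3%, which with 6 residual degrees of freedom limits the precision. A count of 3 in a library was taken as the floor, 0.195 to 0.269 CPM; it covers counting error only. Replicates differed by more than sampling noise, so none was counted as a copy. Implied lengths were fitted with limma 3.58.1 for genes with at least 50 counts and 1 TPM in every library whose length moved by over 2%. DESeq2 1.42.0, limma-voom, limma on log2(FPKM + 1) and on log2(FPKM + 0.1), other scalings, no filter, fits of 2 groups, a replicate block and leaving out each library were the alternatives. The script was tested on simulated data.

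Members and lists were chosen with earlier results of these data known. Named members were, per family, up to 3 called members of smallest p in each direction for model against control, up to 2 for BXD against control, the 5 of smallest p for BXD against model, the 5 of highest TPM, those failing the filter and all Srsf genes. Of each other list up to 2 called genes per direction were named, with Cirbp and Rbm3. A few genes that this rule names are not reported here, though they are in the counts. Further genes were named after their values were seen, and the implied length was added after the data were seen.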

Additional observations from a re-analysis of the deposited data

How the results depend on the processing

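For model against control, members called higher were 16 with library size alone and 17 with either FPKM pseudocount, and lower 13, 11 and 11; the median was 0.17 under upper quartile scaling, 0.028 by library size alone and 0.029 on both FPKM scales. For BXD against model DESeq2 called 1 higher and 1 lower, and the median was 0.030 with library size alone, 0.023 without BXD replicates 1 and 3 and 0.020 on both FPKM scales. For BXD against control 13 were higher with library size alone and on both FPKM scales, with 7 lower in each and 5 with upper quartile scaling, and the median was 0.13 under upper quartile scaling, 0.035 by library size alone, 0.31 without BXD replicates 1 and 3, and 0.058 and 0.060 on the FPKM scales with pseudocounts of 1 and 0.1. The members' median minus that of all genes stayed at 0.31 for model against control and 0.27 for BXD against control under each scaling of the counts. Since scaling shifts all genes by nearly the same amount, this difference could hardly move and is no check of the result.

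Over the other lists, model against control gave 34 higher and 69 lower with library size alone, 35 and 62 on log2(FPKM + 1), and 35 and 63 on log2(FPKM + 0.1). BXD against model gave 2 higher and 4 lower with DESeq2 and 1 higher on log2(FPKM + 1). BXD against control gave 33 higher and 43 lower with library size alone, 39 and 9 without BXD replicates 1 and 3, 32 and 46 on both FPKM scales, and 37 lower with upper quartile scaling. Lsm14a turned to -0.0080 in model against control with library size alone. One member, Srsf5, had a longer implied length in model against control, making the count 1, when all genes with several transcripts were fitted.

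Leaving out single libraries gave, for members, 23 to 32 higher, 5 to 6 lower and medians of 0.26 to 0.31 for model against control; 0 calls and medians of -0.05 to -0.01 for BXD against model; and 16 to 26 higher, 2 to 3 lower and medians of 0.19 to 0.25 for BXD against control. For the other lists the ranges were 53 to 81 higher and 24 to 44 lower, 0 to 1 and 0, and 42 to 70 and 8 to 25. Implied lengths were longer in 0 to 1 and shorter in 3 to 5 members, longer in 0 to 1 and shorter in 0, and longer in 0 and shorter in 2 to 4. Among single genes named, 670 of the values kept their direction and side of the threshold and 50 lost the call without 1 library; under the other alternatives 833 did, 43 lost it, 2 gained it and 1 reversed.

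With the replicate number as a block, members called were 27 higher and 6 lower for model against control, 0 and 0 for BXD against model, and 21 and 2 for BXD against control. Same-numbered libraries had correlations of -0.43 to 0.086 and matched best in 1 of 18 tries, so no pairing by number was seen. With 3 libraries per group and correlations over all tested genes, a weak pairing could go unseen. Protein sequences were not used here, so the planned description of Srsf proteins was not run. The cause of these changes was not tested. Depth limits genes near the floor of 3 counts, such as Celf4.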
